A study of Mus musculus with 6 samples.

Results

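The genes around Egr3 on mouse chromosome 14 were examined in lumbar spinal cord of mice labelled Egr3-deficient and wild type. Egr3 lies at chr14:70077317-70082613 in RefSeq assembly GRCm38.p6. Members were the probe sets with a single gene symbol whose RefSeq gene body lay within 10 Mb of it, without Egr3 itself, Nefl, Nefm, Gfra2 and Stmn4. This gave 300 of 45265 probe sets, 171 on array type A and 129 on array type B, for 157 of 18194 named genes. Of these genes 29 were on both array types, 70 on A alone and 58 on B alone. On the proximal side, towards lower coordinates, lay 96 members on A and 59 on B, and on the distal side 75 and 70.

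The data were 6 arrays from 3 RNA pools, each pool hybridised once to each array type. Each pool joined total RNA of 3 cords (lumbar segments L3-L5) from mice at postnatal day 27. Pools 1 and 2 were labelled Egr3-deficient and the remaining pool wild type. The labels of pool 2 and of wild type add a remark on acclimatization that the label of pool 1 lacks. The labels name no strain, allele or sex for either genotype, so strain differences at these genes were not tested. The wild-type pool had no replicate, so its own spread was not measured. RNA came from pooled whole segments, so fewer cells of a type and less RNA per cell cannot be told apart.

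Egr3 encodes a zinc finger transcription factor of the immediate early class, and mice lacking it are known for the loss of muscle spindles. Its neighbours share a position and no common pathway. Genes close to a mutated locus are usually examined apart from the rest, because DNA around a targeted allele is inherited with it and can differ in strain from the wild-type chromosome. EGR proteins bind a GC-rich element in promoters, with the letters GCGNGGGCG.

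The promoter table used here (RefSeq, GRCm38.p6) held windows for 63 of the 157 member genes and none for the genes within 1 Mb of Egr3. The 250 bases before each start were searched for GCGNGGGCG on both strands, overlaps allowed. It was present for 5 of the 63 member genes, 7.94%, and for 1440 of 27025 genes with a window, 5.33%. These 5 are shown because they are the members in which an EGR element and array values can be read together. Each run holds the last 100 bases before the start, 5′ to 3′ on the gene's strand, with the element in capitals, in the order chr14:61599412-61599511 (plus strand), chr14:62555637-62555736 (plus), chr14:73385290-73385389 (minus), chr14:74947878-74947977 (minus) and chr14:75845156-75845255 (plus).
Trim13: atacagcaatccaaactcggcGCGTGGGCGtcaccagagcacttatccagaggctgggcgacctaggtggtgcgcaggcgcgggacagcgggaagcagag
Fam124a: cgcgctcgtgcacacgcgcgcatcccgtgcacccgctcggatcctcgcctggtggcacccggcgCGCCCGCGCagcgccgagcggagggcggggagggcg
Itm2b: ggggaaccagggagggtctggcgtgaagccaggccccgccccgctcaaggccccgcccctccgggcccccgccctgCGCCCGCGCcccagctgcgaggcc
Lrch1: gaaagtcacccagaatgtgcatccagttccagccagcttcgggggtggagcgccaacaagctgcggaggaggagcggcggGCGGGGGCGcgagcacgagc
Tpt1: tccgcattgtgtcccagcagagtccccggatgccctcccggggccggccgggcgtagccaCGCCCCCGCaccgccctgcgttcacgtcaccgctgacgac

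The element began 79 bases before the start in Trim13, 36 in Fam124a, 24 in Itm2b, 20 in Lrch1 and 40 in Tpt1. None of their kept probe sets passed the limma test. Trim13, a ubiquitin ligase gene, had an intensity of 120 (pool 1) and 175 (pool 2) against 210 in the wild-type pool. Fam124a read 253 and 235 against 224. Itm2b, an abundant membrane protein gene, read 4030 and 4489 against 4199. Tpt1, a translationally controlled growth gene, read 6576 and 7739 against 7791. The mean of both pools thus lay within a log2 difference of 0.42 of wild type in these 4 genes. In pool 1 alone Trim13 differed by -0.63. The Lrch1 probe sets are given with the distal genes. A match of letters is a description of the window and not a measured binding site.

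Intensities are linear values per probe set as deposited. Differences are on the log2(intensity + 16) scale after quantile normalization, pools labelled Egr3-deficient minus wild type, and understate changes of dim genes. Probe sets were kept where their mean log2 value reached the 40th percentile, an intensity of 36.7 on A and 55.9 on B. This kept 105 of 171 members on A and 81 of 129 on B. Median intensities of the arrays ran from 50.3 to 60.1 on A and from 76.2 to 91.8 on B.

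Libraries differed in other tissue markers, which stand here before the results. The 10 skeletal muscle markers measured on A summed to 4326 in pool 1 and 5510 in pool 2 against 175 in wild type, and each of the 10 exceeded wild type in both. In wild type the dimmest muscle marker read 1.33 and the brightest 39.7. On B the 2 measured muscle markers summed to 222 and 340 against 197. The 7 liver markers on A summed to 412 and 10620 against 128, with 6 above wild type in both pools, and the liver marker on B read 584 and 6739 against 50.9. Neuronal markers, the tissue's own, summed to 3742 and 5135 against 7401 over 5 genes on A and 10354 and 12453 against 10613 over 4 genes on B. Myelin markers summed to 14958 and 21677 against 23387 over 4 genes on A and read 13383 and 8695 against 6477 for the single gene on B. Astrocyte markers summed to 3684 and 3829 against 4099 on A and to 11947 and 12440 against 12317 on B. The lumbar Hox markers summed to 688 and 730 against 460 on A and to 1161 and 1082 against 856 on B. The 4 motor neuron markers on A summed to 194 and 211 against 226, and Chat on B read 94.7 and 149 against 76.4. Microglia markers on A summed to 1997 and 1798 against 1535. Endothelial markers summed to 479 and 533 against 493 on A, and the single one on B read 244 and 193 against 218. For the 18S rRNA control, the signal of the 3′ probe set over that of the 5′ probe set was 2.27 and 1.08 against 0.0493 on A and 1.43 and 0.945 against 0.0605 on B. The same quotient for Gapdh was 0.858 and 0.975 against 0.734 on A and 0.923 and 0.805 against 0.755 on B. The part of these differences in the results below was not tested.

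One neighbour of Egr3 passed the test. Phyhip, whose product binds phytanoyl-CoA hydroxylase and is abundant in brain, lies 0.375 Mb distal of Egr3 at chr14:70457517-70468826. Its probe set on B read 475 in pool 1 and 304 in pool 2 against 112 in wild type. Both pools labelled Egr3-deficient were thus above wild type and did not overlap with it. Phyhip rose by 1.71 on the log2 scale (SE 0.46, 2 pools against 1, limma adjusted p = 0.0372), with 2.00 in pool 1 and 1.42 in pool 2. That was 1 call among 81 kept members on B, beside 1.63% of all kept probe sets there. The call was lost when p values were adjusted over both array types together (limma adjusted p = 0.0594), without quantile normalization (0.285), with no filter (0.455), without the intensity trend (0.274) and on centring by probe sets in both tables (0.335). Over the settings that tested it, the adjusted p ran from 0.00695 to 0.455, and the difference stayed above 0 in each. The lowest value came with the filter at the 60th percentile. In that fit the spread between the 2 pools at this probe set did not enter the test.

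No member passed on A, where 0.0663% of all kept probe sets did. At an unadjusted p under 0.05, 8 members were higher and 11 lower among the 105 kept on A, beside 7.93% higher and 12.7% lower, 20.7% in either direction, of all kept probe sets. On B 5 were higher and 5 lower among 81, beside 7.4% and 6.83%, or 14.2% in either direction. Under median centring 7 members on A passed, 6 of them lower: the 3 probe sets of Kpna3, and those of Rb1, Sucla2 and Kctd4. The seventh was a probe set of Clu, with a difference of 0.95 (limma adjusted p = 0.0251). That setting called 227 higher and 597 lower of all kept probe sets on A.

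Kept members were split between higher and lower. On A 44 of 105 stood above the wild-type pool in both pools and 45 below it, beside 47.9% and 34.8% of all kept probe sets. On B 27 of 81 were above and 33 below, beside 38.9% and 36.6%. On the rest of chromosome 14 the shares were 39.2% and 43.4% on A and 40.2% and 37.1% on B. Without the filter, 59 of 171 members on A were above and 68 below in both pools, beside 42.7% and 35.5%, and 48 of 129 on B were above and 50 below, beside 37.8% and 35%. The median difference of kept members was -0.016 on A and -0.13 on B, against 0.11 and 0.000063 over all kept probe sets and -0.025 and -0.011 over the rest of chromosome 14 (332 probe sets on A and 256 on B). For pool 1 the member medians were 0.049 on A and -0.033 on B, and for pool 2 -0.037 and -0.13. The sign of the median on A turned to 0.10 under median centring, a setting that placed the median of all probe sets at 0.17, and to 0.0187 with the filter at the 60th percentile. None of these medians was tested.

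**Figure D1:**
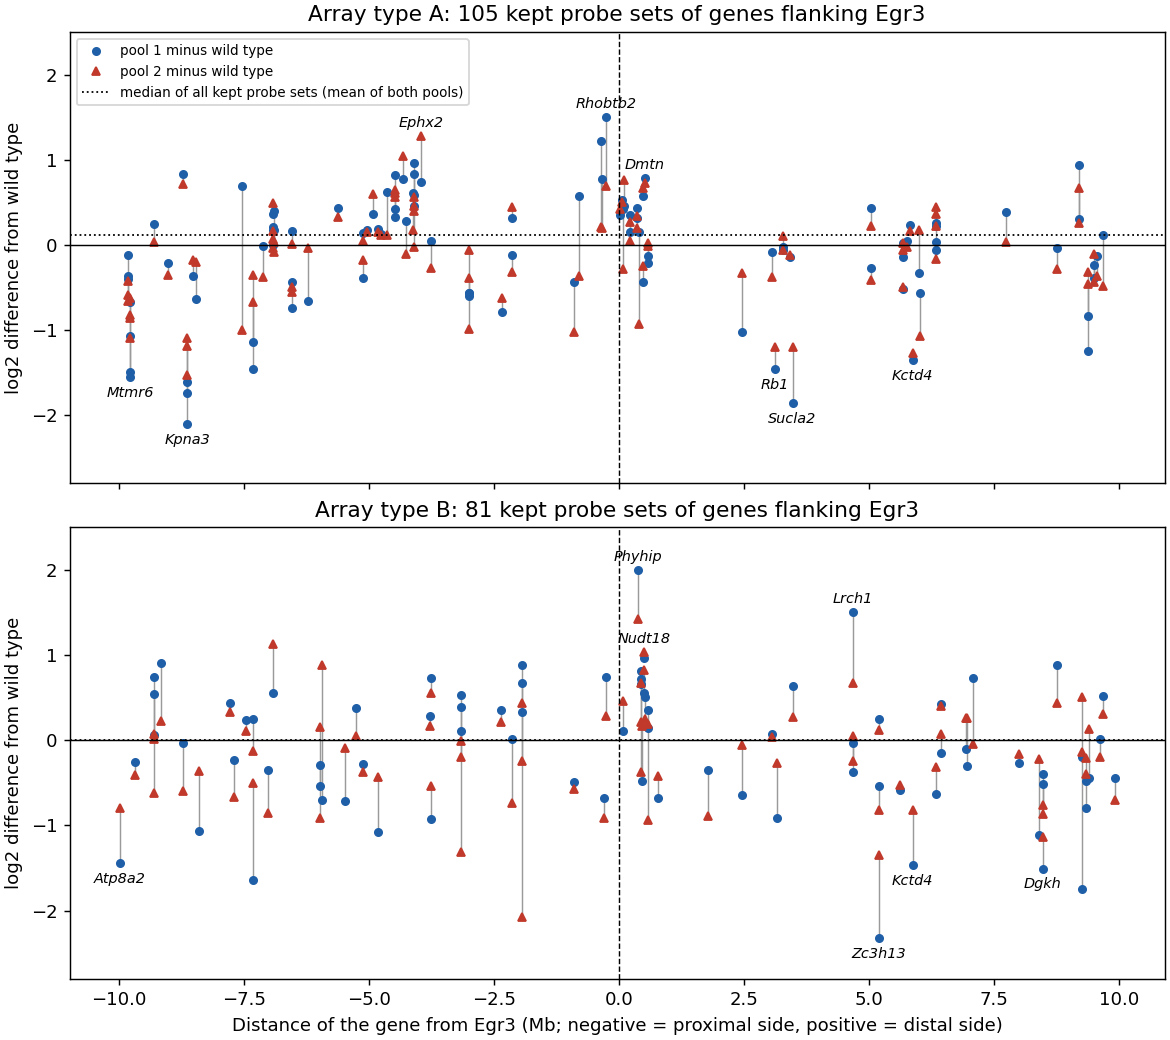
Log2 difference from wild type of every kept probe set near Egr3 (vertical axis) against the distance of its gene from Egr3 in Mb (horizontal axis, proximal side negative), for array types A and B. Circles are pool 1 and triangles pool 2, each minus the wild-type pool, joined by a line, and the dashed line marks Egr3. Phyhip is the highest on B, at 2.00 and 1.42, and Kpna3 is the lowest on A, at -2.10 and -1.53.

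Within 1 Mb of Egr3 lay 31 member genes with 60 probe sets, of which 34 probe sets of 23 genes were kept. Of the 19 kept on A, 12 exceeded the wild-type pool in both others and 3 lay under it. Of all kept probe sets on A, 47.9% were above in both pools and 34.8% below. On B 9 of 15 were above and 3 below, beside 38.9% and 36.6% of all kept probe sets. The median difference within 1 Mb was 0.26 on A and 0.29 on B, beside 0.11 and 6.3e-05 over all kept probe sets. By pool, the median within 1 Mb was 0.43 in pool 1 and 0.20 in pool 2 on A, and 0.50 and 0.22 on B. The sign on B turned to -0.22 on centring by probe sets in both tables, a setting with an overall median of -0.66. On A the median was 0.15 under that setting. The positive median on B also depended on the filter. Without it, the median within 1 Mb was -0.0054 over 28 probe sets on B, where 13 exceeded wild type in each pool and 8 lay under it. On A it was 0.11 over 32 probe sets, with 15 higher and 7 lower. Over all unfiltered probe sets the medians were 0.054 on A and 0.017 on B.

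The nearest distal genes were slightly above wild type on A, and none passed. Bin3, a BAR domain gene of membrane and actin remodelling 0.0175 Mb from Egr3, read 146 and 161 against 122. Ccar2, which encodes an inhibitor of the deacetylase SIRT1, read 180 and 183 against 130. Sorbs3, the focal adhesion adaptor vinexin, read 116 and 154 against 89.4. In these 3 genes both pools were above wild type, with differences of 0.39, 0.52 and 0.61. Pdlim2, a cytoskeletal adaptor, read 1078 and 612 against 737, so the 2 pools lay on opposite sides. Slc39a14, a zinc and manganese transporter, read 66.6 and 57.7 against 57.4 on one probe set on A and 85.1 and 101 against 85.1 on another. The uncharacterised gene 9930012K11Rik on B read 253 and 338 against 244. Pebp4, which ends 0.0174 Mb proximal of Egr3, was not kept: its 3 probe sets on B read 59.4, 37.7 and 5.79 in pool 1, 2.28, 8.45 and 7.39 in pool 2, and 70.4, 50.4 and 5.41 in wild type.

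Proximal of Egr3 and just distal of Slc39a14 lay further genes with both pools above wild type. Rhobtb2, 0.252 Mb proximal, read 113 and 62.7 against 33.7 on A, a difference of 1.10 (SE 0.41, limma adjusted p = 0.207). On B it read 792 and 536 against 419. R3hcc1 read 193 and 92.8 against 81.2, and Chmp7, of the membrane-sealing ESCRT-III machinery, 325 and 213 against 189. Pool 1 was the higher pool in all of these. Polr3d, a subunit of RNA polymerase III, read 73.4 and 73.1 against 64.3 and, on its second probe set, 130 and 127 against 102. Slc25a37, a mitochondrial iron importer gene, read 128 and 64.4 against 89.6, with the pools on opposite sides.

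Distal of these lies a run of genes that includes Phyhip, Lgi3, Nudt18 and Dmtn. Lgi3, a secreted neuronal protein gene, read 4692 and 3570 against 1941 on its brightest probe set on B (difference 0.70, SE 0.31, limma adjusted p = 0.284), 1683 and 1044 against 824 on another, and 1889 and 716 against 824 on the last. Only on the last did a pool lie below wild type. Nudt18, a hydrolase of oxidised nucleotides, read 1095 and 1009 against 466, with differences of 0.97 in pool 1 and 1.03 in pool 2 (SE 0.40, limma adjusted p = 0.210). Fam160b2 read 669 and 775 against 409. Both genes had both pools above wild type and did not pass. Dmtn, the actin-bundling protein dematin, read 751 and 685 against 414 on A (0.76, SE 0.27, limma adjusted p = 0.195). On B it read 343 and 286 against 241, a difference whose sign turned to -0.22 on centring by probe sets in both tables. A further Dmtn probe set on B, not kept, read 10.8 and 13.4 against 54.7. Reep4, an endoplasmic reticulum shaping gene, read 89.0 and 159 against 149.

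Xpo7, a nuclear transport receptor gene 0.580 Mb distal, had the only probe set that is a member on both array types. It read 71.2 and 86.1 against 90.8 on A and 345 and 305 against 267 on B, from the same pools. The differences were -0.069 and 0.28, each smaller than its SE of 0.33 and 0.44. The 2 probe sets of Hr, a nuclear corepressor gene, lay on opposite sides on A: 1 read 83.9 and 98.2 against 59.0 and the other 33.6 and 47.3 against 61.1. Nkx2-6, a homeobox gene 0.902 Mb proximal, was below wild type in both pools on both array types, with 46.0 and 30.4 against 79.4 on A and 194 and 190 against 291 on B (differences -0.72 and -0.53). Bmp1, a procollagen proteinase gene, read 73.5 and 30.8 against 73.8. The uncharacterised genes with kept probe sets on B below wild type in both pools were 4930480K23Rik at 69.2 and 62.3 against 140 and 2410012E07Rik at 75.8 and 102 against 151. Ppp3cc, a calcineurin catalytic subunit gene, Piwil2, Tnfrsf10b, Sftpc, Fgf17, Dok2 and Gm34703 had no kept probe set. Tnfrsf10b, a death receptor gene, stayed at or under 17.4 in every pool.

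**Figure D2:**
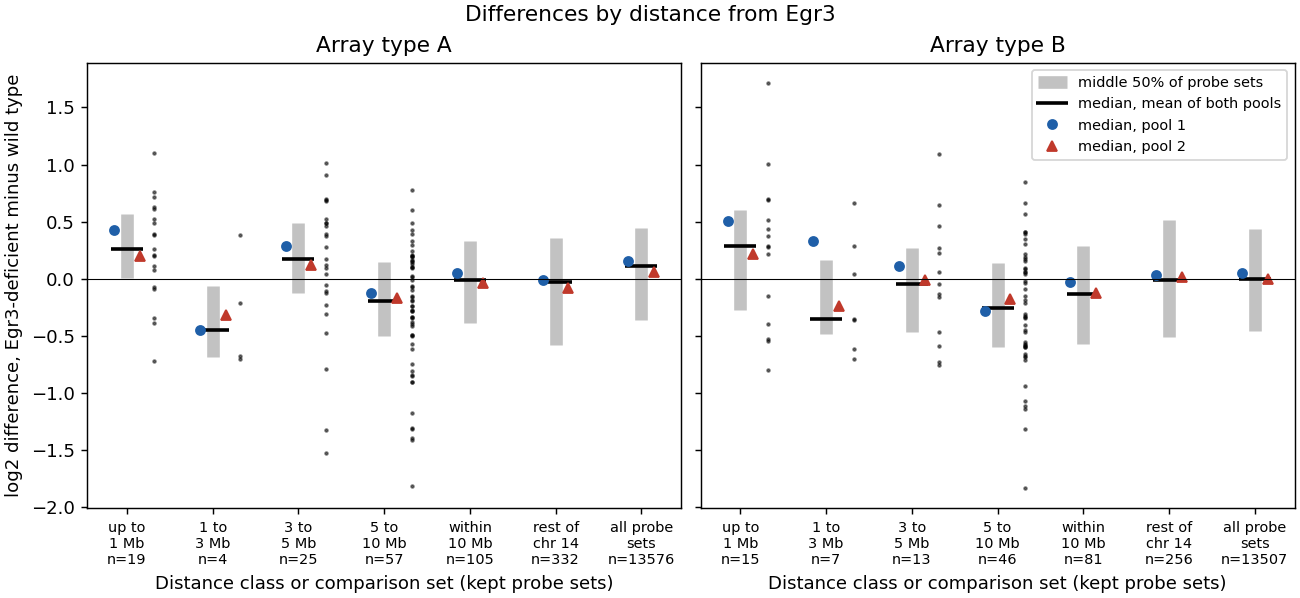
Median log2 difference of kept probe sets by distance class, beside all members, the rest of chromosome 14 and all probe sets, on array types A and B. Black bars are medians of the mean of both pools, grey bars the middle 50% of probe sets, circles and triangles the medians of pools 1 and 2, and small dots single members. The class up to 1 Mb has medians of 0.26 and 0.29 and the class from 5 to 10 Mb medians of -0.19 and -0.26.

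Farther out the medians differed by class. From 1 to 3 Mb the medians were -0.45 over 4 kept probe sets on A and -0.35 over 7 on B. On A the median was -0.45 for pool 1 and -0.32 for pool 2. On B the pools differed in sign, with 0.33 for pool 1 and -0.24 for pool 2. Of those 7 probe sets, 2 were higher in each pool, 2 were lower and 3 had the pools on opposite sides. From 3 to 5 Mb the medians were 0.17 over 25 on A and -0.042 over 13 on B. There the pools on B gave 0.11 and -0.0084. From 5 to 10 Mb the median was -0.19 on A, with 18 of 57 higher in both pools and 31 lower. On B it was -0.26, with 11 of 46 above and 24 below. Of all kept probe sets, 47.9% were above and 34.8% below on A, and 38.9% and 36.6% on B. The class from 5 to 10 Mb kept a negative median under each scaling tried, from -0.27 to -0.15 on A and from -0.88 to -0.13 on B. These classes hold few genes, share the wild-type pool and were not tested against each other. Lower at an unadjusted p under 0.05 in this outer class were 9 of 57 kept probe sets on A, from 4 genes, beside 12.7% of all kept probe sets, and 5 of 46 on B, from 5 genes, beside 6.83%.

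At least 2-fold lower in both pools were 7 kept members on A (6.67%), beside 4.35% of all kept probe sets. On B there were 2 (2.47%), beside 1.8%. At least 2-fold higher were 0 on A, beside 1.2%, and 1 on B, Phyhip, beside 4.27%. On the rest of chromosome 14, 6.93% of kept probe sets were 2-fold lower on A and 3.1% on B. The shares 2-fold higher there were 0.904% and 2.73%. The 7 on A belonged to 5 genes.

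Kpna3, an importin alpha gene of nuclear protein import 8.64 Mb proximal at chr14:61365186-61439947, supplied 3 of the 7. The lowest of its probe sets read 28.2 in pool 1 and 57.1 in pool 2 against 196 in wild type. The second read 46.1 and 76.6 against 197, and the third 47.1 and 93.1 against 219. All 3 placed pool 1 lowest, pool 2 next and wild type highest. Their differences were -1.81 (SE 0.37), -1.40 (SE 0.35) and -1.41 (SE 0.38), each with a limma adjusted p of 0.161. Probe sets of 1 gene share its transcripts and are not independent.

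Sucla2, a subunit of the citric acid cycle enzyme succinyl-CoA ligase 3.47 Mb distal, read 311 and 493 against 1107 on A, a difference of -1.53 (SE 0.34, limma adjusted p = 0.161). Its kept probe set on B read 105 and 83.8 against 74.3, so both pools lay above wild type there, and this sign turned to -0.29 on centring by probe sets in both tables. Rb1, the retinoblastoma cell cycle regulator 3.11 Mb distal, read 47.6 and 68.5 against 181 on A (-1.33, SE 0.33, limma adjusted p = 0.161). Its probe set on B was not kept and had differences of -1.41 in pool 1 and -1.58 in pool 2. Kctd4, a BTB domain gene 5.87 Mb distal, read 36.2 and 46.3 against 135 on A and 194 and 328 against 549 on B. It was below wild type in both pools on both array types, by differences of -1.31 (SE 0.33, limma adjusted p = 0.161) and -1.14 (SE 0.45, limma adjusted p = 0.194).

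Mtmr6, a phosphoinositide phosphatase gene 9.77 Mb proximal, was below wild type on all 4 of its probe sets on A. One probe set read 140 and 208 against 461 (-1.32, SE 0.34, limma adjusted p = 0.161), and another 268 and 425 against 773. The other two differed by -0.75 and -0.85. Ints6, of the Integrator complex that processes small nuclear RNAs, read 1433 and 1853 against 2751 on A (-0.90, SE 0.25, limma adjusted p = 0.161). Its second probe set on A differed by -0.90 as well. On B its probe sets differed by -1.07 and 0.063. On A every probe set of Mtmr6 and Ints6 was brightest in wild type, whereas the Ints6 probe set at 0.063 on B read 161 and 124 against 146.

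Among kept members on B, the lowest were probe sets of Zc3h13 and Dgkh. Zc3h13, of the complex that methylates adenosine in messenger RNA, read 27.6 and 78.7 against 232 on one probe set (-1.83, SE 0.60, limma adjusted p = 0.0999). A brighter probe set of the gene read 293 and 239 against 418 (-0.68), and a dim one 58.2 and 58.3 against 58.7, which became 0.19 after normalization. Dgkh, a diacylglycerol kinase gene 8.48 Mb distal, read 222 and 302 against 625 on its brightest probe set (-1.32, SE 0.44, limma adjusted p = 0.110). Its other kept probe sets differed by -0.69 and -0.58, so all 3 were below wild type in both pools. Atp8a2, a neuronal phospholipid flippase gene at the edge of the window, read 115 and 201 against 355. Its 2 dim probe sets, not kept, lay above wild type, as did 1 of the 2 dim probe sets of Shisa2, the first gene beyond the edge at 10.4 Mb, which read 33.2 and 18.6 against 13.1.

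**Figure D3:**
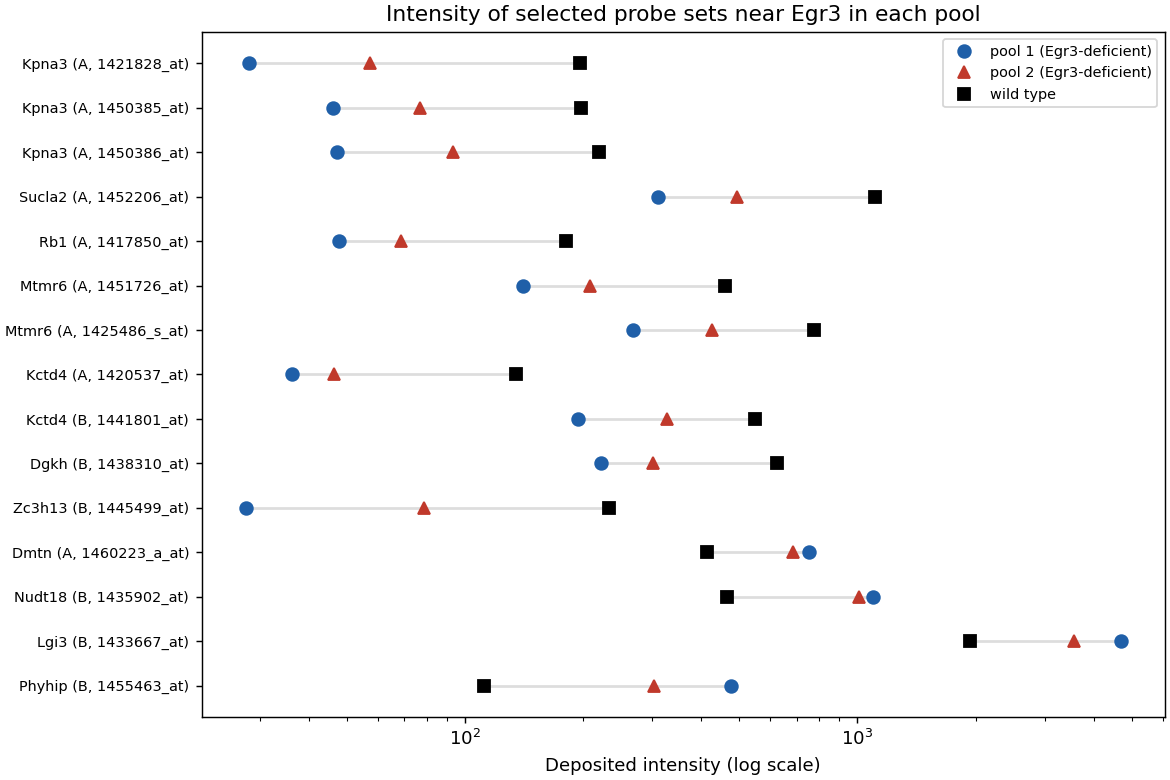
Deposited intensity (horizontal axis, log scale) of 15 probe sets near Egr3 in pool 1 (circles), pool 2 (triangles) and wild type (squares), 1 value per pool. Wild type is the highest value in the 11 upper probe sets, from Kpna3 to Zc3h13, and the lowest in the 4 below them, with Phyhip at 475 and 304 against 112.

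Beyond 1 Mb, the members higher at an unadjusted p under 0.05 on A were in Ephx2, Clu, Scara5 and Ebpl, and on B in Trim35 and Lrch1. Ephx2, the soluble epoxide hydrolase gene, read 87.0 and 143 against 53.1 on A (1.01, SE 0.37, limma adjusted p = 0.199). Clu, the secreted chaperone clusterin, 4.10 Mb proximal, had 4 kept probe sets with differences of 0.70, 0.68, 0.46 and 0.28. The first read 1788 and 1382 against 885, the second 4276 and 3126 against 2054 and the third 3888 and 4245 against 2655. In 3 of the 4 both pools were above wild type. Scara5, a ferritin receptor gene, read 57.9 and 81.7 against 33.0. Elp3, the catalytic subunit of Elongator, was above wild type in both pools on all 3 probe sets, by 0.69, 0.52 and 0.49. Ebpl, 8.72 Mb proximal, read 340 and 311 against 190 on A and 126 and 85.1 against 144 on B. On B Lrch1, a distal actin-binding protein gene, read 191 and 103 against 66.2 on 1 probe set and 317 and 276 against 323 on another. Its remaining kept probe set read 190 and 271 against 264, with the pools on opposite sides and a difference of -0.16. Trim35 also had kept probe sets on opposite sides on B. Its bright one read 4598 and 3152 against 1895 and a dim one 81.3 and 121 against 192. Ctsb, the lysosomal protease cathepsin B, read 108 and 180 against 81.3 on B, a difference of 0.85. The kept Ctsb probe sets on A differed by 0.43, 0.19, 0.13 and -0.016. A230070E04Rik read 198 and 146 against 113 on 1 probe set (0.66). Its other kept probe sets on B differed by -0.70 and 0.043, each with the pools on opposite sides. Cog3, a Golgi tethering gene, read 421 and 428 against 574.

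**Figure D4:**
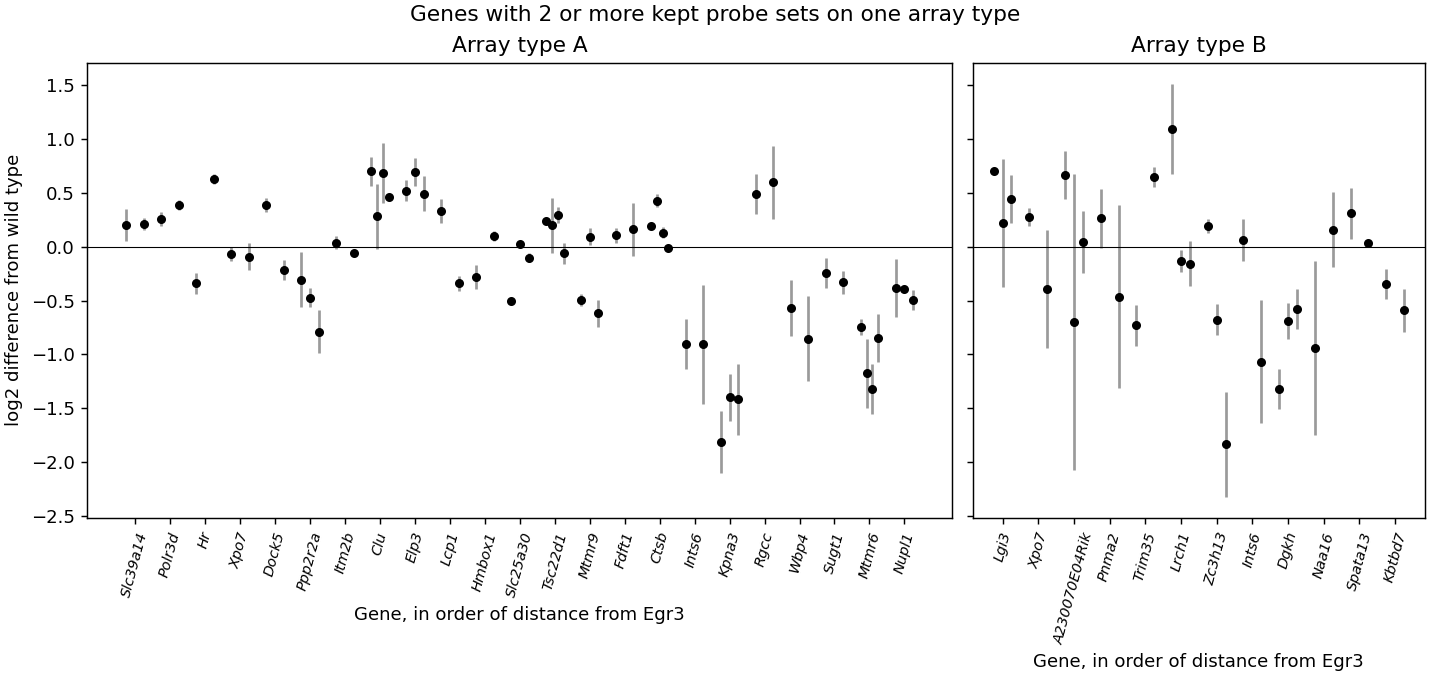
Log2 difference from wild type (vertical axis) of each kept probe set of the genes with 2 or more kept probe sets on an array type, in order of distance from Egr3. Dots are the mean of both pools and grey lines span pools 1 and 2. Kpna3, Mtmr6 and Dgkh lie below 0 on every probe set, Elp3 above 0 on every one, and Hr and Trim35 on both sides.

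Several probe sets of 1 gene did not always give the same side. Across 23 genes on A that had 2 or more kept probe sets, 7 had all of them below wild type in both pools, 4 had all above, 6 had probe sets on opposite sides, and in the other 6 the pools themselves were split. On B the counts were 2, 1, 3 and 6 of 12. The same counts were not made over all genes on the arrays, so none is read as a trait of these members. On A the opposite pairs were in Hr, Dock5, Lcp1, Hmbox1, Slc25a30 and Mtmr9, with differences from -0.62 to 0.63. On B they were in Trim35, Lrch1 and Zc3h13, with differences from -1.83 to 1.09. Sides were read after normalization. The sources used here do not place probes within genes.

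By function the members followed no single direction. Of the receptor, ligand and secreted signal genes, 2 of 3 kept on A stood above in both pools and 0 below, against 2 and 2 of 5 on B. Pnoc, the nociceptin precursor, read 171 and 121 against 115, and Lpar6, a lysophosphatidic acid receptor, 325 and 518 against 577. Fzd3, a Wnt receptor, read 558 and 842 against 1024 on B. Its kept probe set on A lay on the other side after normalization, by 0.19 in pool 1 and 0.15 in pool 2. Among kinase, phosphatase and adaptor genes 2 of 8 were above and 5 below on A and 2 of 7 and 4 on B. Their medians of -0.22 and -0.58 stayed negative under each scaling. Without the filter the median was 0.017 over 15 probe sets on A and -0.36 over 9 on B. Of the 15 on A, 6 were above and 6 below, beside 42.7% and 35.5% of all unfiltered probe sets. Akap11, an anchor of protein kinase A, read 1546 and 2462 against 2396, and after normalization both pools were lower, by -1.11 and -0.22. Ppp2r2a, a regulatory subunit of protein phosphatase 2A, was below wild type in both pools on its 3 kept probe sets on A, with differences from -0.79 to -0.31. None of these genes passed the test.

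Cytoskeleton and trafficking genes stood above in 5 of 16 kept probe sets on A and below in 9, and in 5 and 2 of 11 on B. For these and the next lists, the shares of all kept probe sets were again 47.9% above and 34.8% below on A. On B they were 38.9% and 36.6%. Dpysl2, the axon growth protein CRMP2, was the brightest member on B at 13831 and 8882 against 7204, with a normalized difference of -0.042 that turned to 0.62 without quantile normalization. Kif13b, a kinesin gene, read 1022 and 748 against 647. Transcription, chromatin and RNA genes numbered 11 above and 7 below of 20 on A, against 1 and 5 of 8 for array type B. Tsc22d1, a transcription regulator, read 3044 and 2645 against 2657 on its brightest probe set. Mitochondrial, transport and metabolism genes numbered 7 above and 4 below of 13 on A, against 3 and 2 of 6 on B. Fdft1, squalene synthase, read 1332 and 1115 against 1059, and Vwa8 read 641 and 442 against 319 on B. The kept Vwa8 probe set on A lay below wild type, by -0.034 in pool 1 and -0.28 in pool 2. Protein folding, turnover, matrix and cell surface genes numbered 10 above and 7 below of 23 on A, against 4 and 4 of 8 on B.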

How the data were processed

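Total RNA pools of lumbar cord were hybridised to 2 array types. Each deposited value is an intensity on a linear scale, made by the authors for one probe set. Per these values, arrays were scaled so that the mean after trimming 2% from each tail lay between 150.02 and 150.06. The summarisation program was not given in the sources used here. Each table was analysed alone, without its 64 control probe sets.

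Gene symbols came from the platform annotation, updated through gene identifiers to RefSeq GRCm38.p6 (20364 probe sets on A, 14499 on B), and 1 member was placed by symbol alone. Distance is the gap between gene bodies. Analysis used log2(intensity + 16) after quantile normalization, filtered at the 40th percentile. The fit across all kept probe sets (13576 on A, 13507 on B) used limma 3.58.1 in R 4.3.3 (lmFit, and eBayes with trend). P values were adjusted per array type by Benjamini-Hochberg, with 0.05 as the threshold. With 2 pools against 1, the residual spread is that of pools 1 and 2, moderated by the prior, and wild type was assumed to vary like them. Only the spread between these pools was measured, and much of it entered each p value through the prior. In the main fit its degrees of freedom were 6.54 on A and 52.3 on B. Tests on B thus drew mostly on spread shared across kept probe sets. On B, Nudt18 had an SD between pools of 0.042 but an SE of 0.40. A probe set of A230070E04Rik there had an SD of 1.94 but an SE of 0.71. The script was tested on simulated data.

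Named genes were members within 1 Mb, called members, the 8 higher and 8 lower per array type by the smaller of the 2 pool differences, bright members of role lists, and genes with probe sets on opposite sides. Trim13 and Fam124a were named for their promoter element. Other genes and values outside this rule were chosen after their values were seen. Members and lists were chosen with earlier results of these data known. Alternatives changed scaling, pseudocount (1, 64), filter (none, 60th percentile), variance model, adjustment, pools and window (5 Mb).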

Additional observations from a re-analysis of the deposited data

How the results depend on the processing

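No paired analysis was possible because there was only 1 wild-type pool. The labels do not name it as the partner of either pool labelled Egr3-deficient. With 2 pools against 1, the number of arrays limits every p value, and dim probe sets near the filter intensity are the least certain. Leaving out a pool gives values with no test. Under median centring the prior on A had infinite degrees of freedom, against 6.54 in the main fit. The pool spread of a single probe set then did not enter its test. On B the prior was infinite under median centring, a pseudocount of 64 and the filter at the 60th percentile, and its median was infinite under robust eBayes. Phyhip was called in each of these, and with a pseudocount of 1 (33.7 degrees of freedom). It was not called at 17.1 (no quantile normalization), 10.4 (no trend), 7.44 (no filter) or 6.25 (centring by probe sets in both tables). The count of called members on A rose from 0 to 7 under median centring. The count on B fell from 1 to 0 with adjustment over both array types, without quantile normalization, on centring by probe sets in both tables, with no filter and without trend. The median member difference on A was 0.10 under median centring, 0.0187 with the filter at the 60th percentile and 0.21 in the 5 Mb window, against -0.016. On B it was -0.20 without quantile normalization, -0.032 under median centring, -0.78 on centring by probe sets in both tables and 0.060 in the 5 Mb window. Members at least 2-fold apart in both pools numbered 7 on A and 3 on B, but 2 on A with a pseudocount of 64 and 2 in the 5 Mb window, and on B 14 on centring by probe sets in both tables, 11 with no filter and 1 in the 5 Mb window. With pool 1 or pool 2 left out, the member medians ran from -0.037 to 0.049 on A and from -0.13 to -0.033 on B, and the 2-fold counts in the remaining pool from 12 to 15 on A and from 7 to 11 on B. Over the whole of B, calls went from 138 higher and 82 lower to 2 and 0 without quantile normalization.

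Of 95 kept probe sets named by the rule, 18 turned sign under a scaling, in 30 cases, none of them called, the largest of 0.66 in size. Without quantile normalization these were on A Hmbox1 (-0.0181), Itm2b (0.0186), Mtmr9 (-0.00553), Slc25a30 (-0.0737), Tpt1 (-0.13) and Tsc22d1 (0.0944), and on B Dpysl2 (0.62) and Zc3h13 (-0.00958). Under median centring they were Itm2b (0.14), Tpt1 (-0.00669), Tsc22d1 (0.21) and Xpo7 (0.00670) on A, and Dpysl2 (0.79) and Lrch1 (0.0502) on B. On centring by probe sets in both tables they were Hmbox1 (-0.0175), Itm2b (0.0193), Mtmr9 (-0.00490), Slc25a30 (-0.0731), Tpt1 (-0.13) and Tsc22d1 (0.0951) on A. On B, with an overall median of -0.66 under that centring, they were 9930012K11Rik (-0.33), A230070E04Rik (-0.0464), Dmtn (-0.22), Dpysl2 (0.0436), Kif13b (-0.15), Lgi3 (-0.0861), Rcbtb2 (-0.53), Sucla2 (-0.29), Xpo7 (-0.31) and Zc3h13 (-0.59). The cause was not tested.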

Other observations

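Genes outside the naming rule, chosen after their values were seen, add to this account. Wbp4, a splicing factor gene 9.38 Mb distal, read 87.7 and 172 in pools 1 and 2 against 247 in wild type on one probe set and 71.5 and 118 against 156 on the other. Nupl1, a nuclear pore gene 9.83 Mb proximal, was below wild type in both pools on its 3 kept probe sets, by differences of -0.38, -0.39 and -0.49. Kctd9, 2.34 Mb proximal, read 119 and 141 against 232, and Kbtbd7, 9.34 Mb distal, read 609 and 781 against 911 on its brighter probe set. Above wild type in both pools were 2 others. Rgcc, a cell cycle regulator gene 9.21 Mb distal, read 633 and 376 against 317 on its brighter probe set. Mipep, a mitochondrial peptidase gene 9.17 Mb proximal, read 889 and 500 against 410. None of these passed the limma test.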
